A study of Mus musculus with 12 samples.

Results

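Expression of 34 genes of the choroid plexus epithelium was followed in bulk RNA of the mouse cerebellum. They were a list of symbols matched by Ensembl ID to the count tables, 34 of 56941 genes. The 12 libraries came from SCA1 (Atxn1 154Q/2Q) mice, a knock-in model that carries 1 expanded and 1 normal Atxn1 allele, and from wild-type (WT) littermates, all C57BL/6J and 16 weeks old. There were 3 libraries, each from 1 numbered mouse, in each of 4 groups. WT sedentary and SCA1 sedentary mice were group-housed without a wheel, whereas WT exercise and SCA1 exercise mice lived alone with a running wheel for 12 weeks from 4 weeks of age, so that running and solo housing cannot be told apart. In the study, wheels were removed before behavioral testing, and tissue of all mice was taken after the last test. Male and female mice were used in the study, and the labels do not give the sex of a library.

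The choroid plexus is a vascular tuft covered by a cuboidal epithelium that hangs in the brain ventricles, including the fourth ventricle beneath the cerebellum. Its epithelial cells secrete cerebrospinal fluid through apical and basolateral ion transporters and aquaporin, form the barrier between blood and fluid with claudin junctions, and release carrier proteins such as transthyretin. How much choroid plexus each dissected sample held was not measured. In bulk RNA, fewer cells of a type and less RNA per cell cannot be told apart.

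Libraries held 20556802 to 32127508 reverse-strand counts. Expression is given as CPM, counts per 1000000 counts of the library after TMM normalization. All 34 members passed the filter on low counts, which left 20341 genes, and 21 of them had at least 10 counts in every library. The summed CPM of 8 Purkinje cell markers was 5539 to 9626 in all libraries, so the labelled tissue was present in each. Summed ranges were 243 to 333 CPM for 10 endothelial genes, 2431 to 3880 for 8 genes of Bergmann glia and astrocytes and 15.5 to 81.3 for 5 erythrocyte genes. Libraries that stood apart were of 2 kinds. SCA1 sedentary mouse 16 and SCA1 exercise mouse 55 had 6.38% and 6.33% of read pairs mapped to several places, against 2.08% to 3.46% elsewhere. They also had summed levels of 278 and 225 CPM for 17 genes of the hindbrain below the cerebellum, against 34.4 to 58.4 CPM, and of 7417 and 5923 CPM for 10 oligodendrocyte genes, against 2666 to 4490 CPM. WT sedentary mouse 192 and SCA1 sedentary mouse 195 stood apart by the members themselves.

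Ttr (ENSMUSG00000061808, chromosome 18 of GRCm39 from 20797253 to 20807467), which encodes transthyretin, the carrier of thyroxine and retinol-binding protein in cerebrospinal fluid, was the most abundant member. Its expression in WT sedentary mice 116, 117 and 192 was 382, 131 and 3.89 CPM. WT exercise mice 121, 197 and 201 had 1744, 732 and 935 CPM. SCA1 sedentary mice 16, 194 and 195 had 736, 1064 and 5.24 CPM, and SCA1 exercise mice 55, 122 and 198 had 1449, 470.5 and 790.4 CPM. Both sedentary groups thus held a library nearly without Ttr, at 0.461% and 0.622% of the mean of the other 10 libraries, 843 CPM. These 2 libraries lay 4.62 log2 units below the next, and no other gap between neighbouring libraries was over 1.54. The highest level was 449 times the lowest, and the counts behind them ran from 103 to 39812.

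Per kb of annotated exon, Ttr averaged 369 CPM per kb over the 12 libraries. Enpp2, which encodes autotaxin, the secreted enzyme that makes lysophosphatidic acid, was next at 63.9 CPM per kb, followed by Igfbp2, a binding protein of insulin-like growth factors, at 13.7, and Ace, the angiotensin-converting enzyme of cell surfaces, at 6.69. Wfdc2, a small secreted protease inhibitor homologue, was the lowest at 0.169. Exons of all annotated transcripts were summed, which lowers the value of genes with long, rarely used exons.

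The members shared their extremes. WT exercise mouse 121 held the highest CPM of 22 members, SCA1 exercise mouse 55 that of 11, and SCA1 sedentary mouse 16 that of Igfbp2 alone. The lowest value was in WT sedentary mouse 192 for 18 members and in SCA1 sedentary mouse 195 for 10, with the other 6 in WT sedentary mice 116 or 117. Since the 2 libraries nearly without Ttr form a separate cluster, correlations were computed over the other 10 libraries only. There the median Pearson r of log2 CPM with Ttr was 0.949 over the other 33 members, against −0.003 over the 20340 genes tested other than Ttr. An r above 0.9 was reached by 58 of these 20340 genes (0.285%), and 22 of the 58 were members. In a permutation test with 100000 resamples, 31 of 33 members had a Benjamini-Hochberg adjusted p under 0.05 by Pearson's r, and 32 by Spearman's rho. Among the 561 pairs of members the median r was 0.902, with a range of 0.111 to 0.999.

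The 7 members closest to Ttr were Folr1, Kcnj13, Kcne2, Enpp2, Aqp1, Krt18 and Kl. Folr1, the folate receptor that carries folate into cerebrospinal fluid, had r = 0.987 (rho 0.988). Kcnj13, an inwardly rectifying potassium channel of the apical membrane, had r = 0.986 (rho 0.952), although 41.0% of the stranded counts at its locus were on the opposite strand, and Kcne2, a potassium channel subunit, r = 0.985 (rho 0.927). Enpp2 had r = 0.979 (rho 0.952), the water channel gene Aqp1 r = 0.975 (rho 0.988), the keratin gene Krt18 r = 0.973 (rho 0.915), and Kl, which encodes the FGF23 co-receptor klotho, r = 0.973 (rho 0.939). The adjusted permutation p was 8.68e-05 for the r of each of these 7. Without WT exercise mouse 121 and WT sedentary mouse 117, the 2 libraries whose Ttr was farthest from the median, these 7 had r of 0.927 to 0.960, and the median over the 33 members was 0.881.

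Within groups the correlation held for most members. It was again computed over the 10 libraries without mice 192 and 195. Of the sedentary groups this left WT mice 116 and 117 and SCA1 mice 16 and 194. The values of such a pair mirror each other once their mean is subtracted. After the mean of each group was subtracted, the median r with Ttr was 0.894. All 33 were positive, but the lowest were 0.0267 for Slc13a4, 0.245 for Wfdc2 and 0.323 for Igf2. By a permutation that shuffled these values across groups, 24 had an adjusted p under 0.05. The shuffling did not allow for the subtracted means, so these p can be too small. Folr1 shows the pattern in CPM. It had 2.27, 0.726 and 0.0377 CPM in WT sedentary mice 116, 117 and 192, and 12.6, 6.55 and 6.75 CPM in WT exercise mice 121, 197 and 201. In SCA1 sedentary mice 16, 194 and 195 it had 5.23, 9.73 and 0.144 CPM, and in SCA1 exercise mice 55, 122 and 198 it had 10.5, 4.00 and 6.69 CPM. Folr1 was thus low where Ttr was low and high where Ttr was high, inside each group as well as between groups. Mice 192 and 195 had 1 and 3 Folr1 counts.

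**Figure D1:**
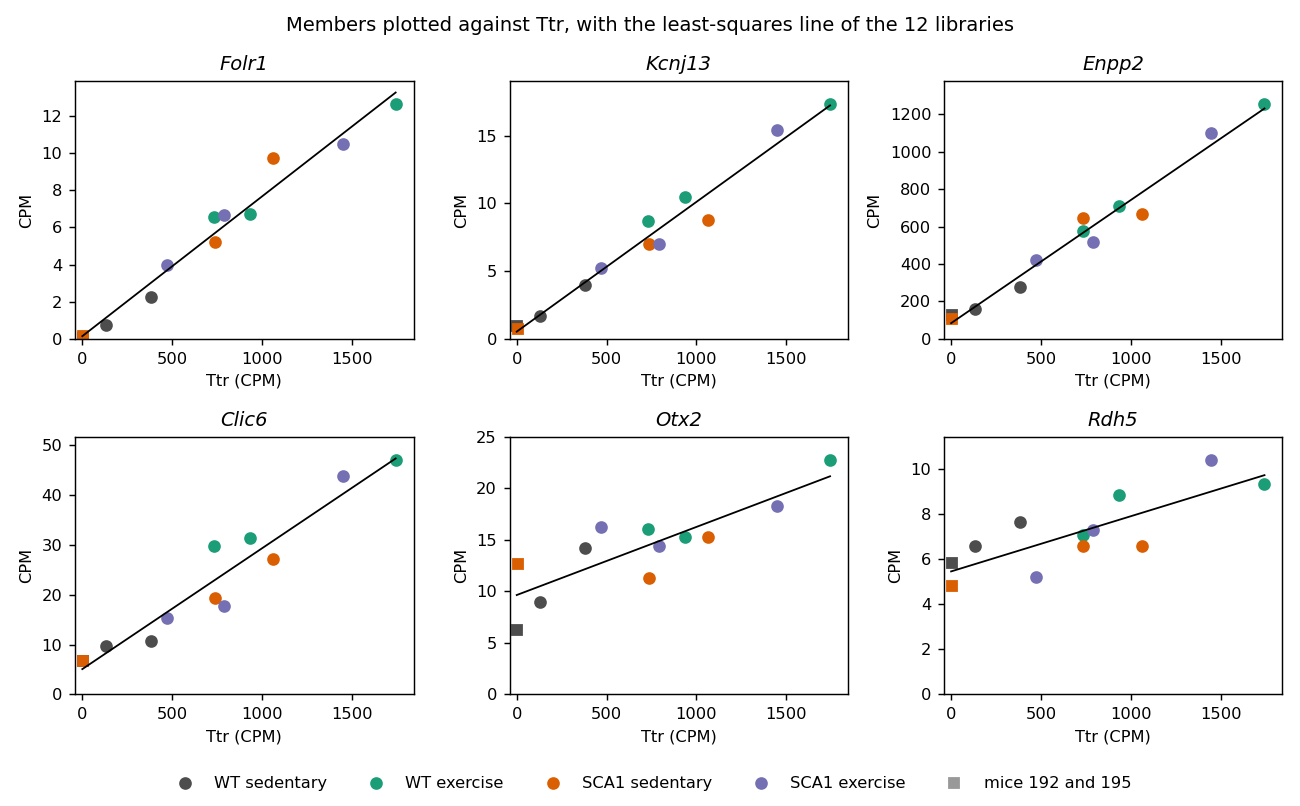
Expression of 6 members (y axis, CPM) against Ttr (x axis, CPM) in the 12 libraries, colored by group, with squares for mice 192 and 195 and the least-squares line. Folr1 and Kcnj13 fall close to a line through the origin, and Enpp2 and Clic6 meet the y axis above 0. The lines of Otx2 and Rdh5 rise with Ttr from 67.5% and 76.0% of the mean.

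The slope of log2 CPM on log2 Ttr over the 10 libraries told the members apart further. With a slope of 1 a gene scales in proportion to Ttr. The interval of 2 SE lay above 1 for 6 members. These were Mfrp (slope 1.59, SE 0.177), which encodes a frizzled-related membrane protein, Tmem72 (1.55, SE 0.161), Sostdc1 (1.42, SE 0.169), which encodes a secreted antagonist of BMP and Wnt signaling, Kl (1.28, SE 0.108), Kcne2 (1.27, SE 0.0794) and Aqp1 (1.26, SE 0.101). It lay below 1 for 10 members and included 1 for 17. The lowest slopes were those of Rdh5 (0.15, SE 0.0784), Otx2 (0.28, SE 0.0688) and Foxj1 (0.28, SE 0.158).

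Because the members moved together, the 250 bases before the start site were read for those with the highest r that a RefSeq promoter table held (mouse build GRCm38.p6, 27 of 34 members matched). The letters TAATCC, the core bound by Otx homeodomain proteins, and TGTTTAC, a forkhead core, were searched on both strands. The promoters of Kcnj13, Kcne2, Aqp1 and Kl held neither and are in lower case throughout. Mfrp was the member with the highest r among those that held TAATCC, and it is shown for that reason, with the match in capitals as it reads on the reverse strand, 134 bases before the start.
Kcnj13, chr1:87394730-87394979, minus strand: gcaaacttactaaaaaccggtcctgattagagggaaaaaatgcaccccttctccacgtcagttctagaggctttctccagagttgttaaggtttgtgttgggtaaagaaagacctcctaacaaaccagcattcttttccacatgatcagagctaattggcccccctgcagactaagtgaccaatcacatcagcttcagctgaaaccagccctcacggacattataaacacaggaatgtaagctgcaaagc
Kcne2, chr16:92292139-92292388, plus strand: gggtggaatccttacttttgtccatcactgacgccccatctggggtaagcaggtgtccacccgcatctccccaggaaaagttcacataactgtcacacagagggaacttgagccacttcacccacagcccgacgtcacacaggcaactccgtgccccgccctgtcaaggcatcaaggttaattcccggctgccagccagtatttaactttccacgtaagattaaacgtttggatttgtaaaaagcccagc
Aqp1, chr6:55336049-55336298, plus strand: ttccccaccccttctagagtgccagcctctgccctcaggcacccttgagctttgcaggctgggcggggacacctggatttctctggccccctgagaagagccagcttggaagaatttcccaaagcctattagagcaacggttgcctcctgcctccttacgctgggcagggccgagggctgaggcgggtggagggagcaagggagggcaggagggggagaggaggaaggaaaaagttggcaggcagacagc
Kl, chr5:150952357-150952606, plus strand: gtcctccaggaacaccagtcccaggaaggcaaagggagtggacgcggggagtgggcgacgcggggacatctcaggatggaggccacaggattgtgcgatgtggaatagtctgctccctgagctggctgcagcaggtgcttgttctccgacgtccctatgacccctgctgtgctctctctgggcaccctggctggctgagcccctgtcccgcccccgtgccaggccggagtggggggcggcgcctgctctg
Mfrp, chr9:44101520-44101769, plus strand: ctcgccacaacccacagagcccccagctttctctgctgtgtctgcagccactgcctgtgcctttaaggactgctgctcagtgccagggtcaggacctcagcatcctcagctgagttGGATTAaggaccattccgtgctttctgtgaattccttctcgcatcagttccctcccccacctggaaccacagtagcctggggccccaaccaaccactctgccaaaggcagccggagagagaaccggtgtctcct
TAATCC was present in 4 of the 39 start sites of the members (Abca4, Ace, Mfrp and Otx2) and in 6.25% of all 32851 promoters of this length. TGTTTAC was present in 1 (Prlr) and in 3.17% of all. A match is a description of letters and not of a binding site, and its absence here says nothing of these factors.

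Some members kept a level of their own where Ttr was nearly absent. A straight line of CPM on Ttr CPM was fitted over the 12 libraries, and the intercept, the level at a Ttr of 0, was expressed as a percent of the member's mean. The 95% interval lay above 0 for 9 members, included 0 for 24, and was below 0 for none of the 33. Counts cannot tell which cells of the sample such a level comes from.

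Of the 3 transcription factors, Otx2 and Foxj1 were among the 9, whereas the interval of Msx1 included 0 (27.8%, −0.297% to 56.0%). Otx2, the homeodomain factor that specifies and maintains choroid plexus epithelium, had an intercept of 67.5% of its mean (95% interval 49.3% to 85.6%). It had 14.2, 8.97 and 6.23 CPM in WT sedentary mice 116, 117 and 192, and 22.7, 16.1 and 15.2 CPM in WT exercise mice 121, 197 and 201. In SCA1 sedentary mice 16, 194 and 195 it had 11.3, 15.3 and 12.6 CPM, and in SCA1 exercise mice 55, 122 and 198 it had 18.3, 16.3 and 14.4 CPM. Mouse 195, nearly without Ttr, thus had more Otx2 than mouse 16 of the same group. Its correlation with Ttr was the least stable, at r = 0.818 (rho 0.661, adjusted permutation p = 0.00610) and r = 0.340 without the 2 farthest libraries. Foxj1, the master regulator of motile cilia, had an intercept of 58.3% (16.6% to 99.9%) and its highest levels, 16.6 and 17.1 CPM, in mice 16 and 55. The other 10 libraries had 3.95 to 12.2 CPM of Foxj1. Its r with Ttr was 0.535 (rho 0.685, adjusted permutation p = 0.108 for r and 0.0366 for rho).

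Rdh5, which encodes a retinol dehydrogenase, had the highest intercept, 76.0% (60.5% to 91.5%), and ranged only from 4.81 to 10.4 CPM. Its r with Ttr was 0.568 (rho 0.624, adjusted permutation p = 0.0903 and 0.0599). In GENCODE M39, which may not be the release the authors counted on, 70.7% of its exon bases are shared with Bloc1s1 on the same strand, so its counts are uncertain. Ace had an intercept of 37.6% (22.0% to 53.2%), with 16.2 and 15.6 CPM in mice 192 and 195. WT sedentary mice 116 and 117 had 19.9 and 17.8 CPM of Ace, the exercised WT mice 71.3, 41.4 and 40.6 CPM, and the other 5 libraries 29.9 to 64.3 CPM. Ace was therefore at a similar level in mice 116, 117, 192 and 195, whose Ttr ran from 3.89 to 382 CPM, and higher in the other 8.

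Among transporters and channels, Slc13a4, a sulfate transporter, had an intercept of 56.7% (20.6% to 92.8%), Slc2a12, a glucose transporter, 26.0% (7.81% to 44.3%), Trpv4, an osmosensitive cation channel, 24.2% (1.74% to 46.6%), and Clic6, an intracellular chloride channel family member, 23.0% (3.11% to 42.9%). At the Slc2a12 locus 49.0% of stranded counts were on the opposite strand, where Tbpl1 overlaps 34.1% of its exon bases. Enpp2 had the lowest of the 9, 15.4% (3.20% to 27.6%), yet because it is abundant this was 84.3 CPM, and mice 192 and 195 had 129.8 and 106 CPM of it. Hence the 2 libraries nearly without Ttr still had well-measured Enpp2, from 3440 and 2194 counts. Igf2 (54.4%, −2.48% to 111%) and Igfbp2 (35.7%, −8.94% to 80.4%) had wide intervals that included 0.

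At the other end were members with an intercept near 0. Intercepts were 2.73% for Folr1 (−12.1% to 17.5%), 1.82% for F5, which encodes coagulation factor V (−24.2% to 27.8%), 0.917% for Slc4a5, a sodium bicarbonate cotransporter (−14.2% to 16.0%), −2.04% for Aqp1 (−17.4% to 13.3%) and −4.63% for Kl (−20.9% to 11.6%). An intercept near 0 did not always mean absence in mice 192 and 195. As a percent of the mean of the other 10 libraries, Ttr had 0.461% and 0.622% there. Folr1 had 0.580% and 2.22%, F5 3.32% and 3.03%, Slc4a5 9.69% and 11.7%, Aqp1 7.37% and 6.27%, and Kl 4.20% and 3.96%. In mice 192 and 195, Mfrp had 0.0377 and 0.241 CPM, Kcne2 had 0.0755 and 0.0481 CPM, and Steap1 and Krt18 had no counts. For Steap1 and Krt18, 0 counts among 26869891 and 20556802 allow no more than 3 counts in each. With mice 192 and 195 left out, 3 members kept an interval above 0, Ace, Otx2 and Rdh5. These 3 also kept it in all 17 alternatives tried, Foxj1 and Slc13a4 in 16, Slc2a12 in 15, Enpp2 in 12, and Clic6 and Trpv4 in 10.

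**Figure D2:**
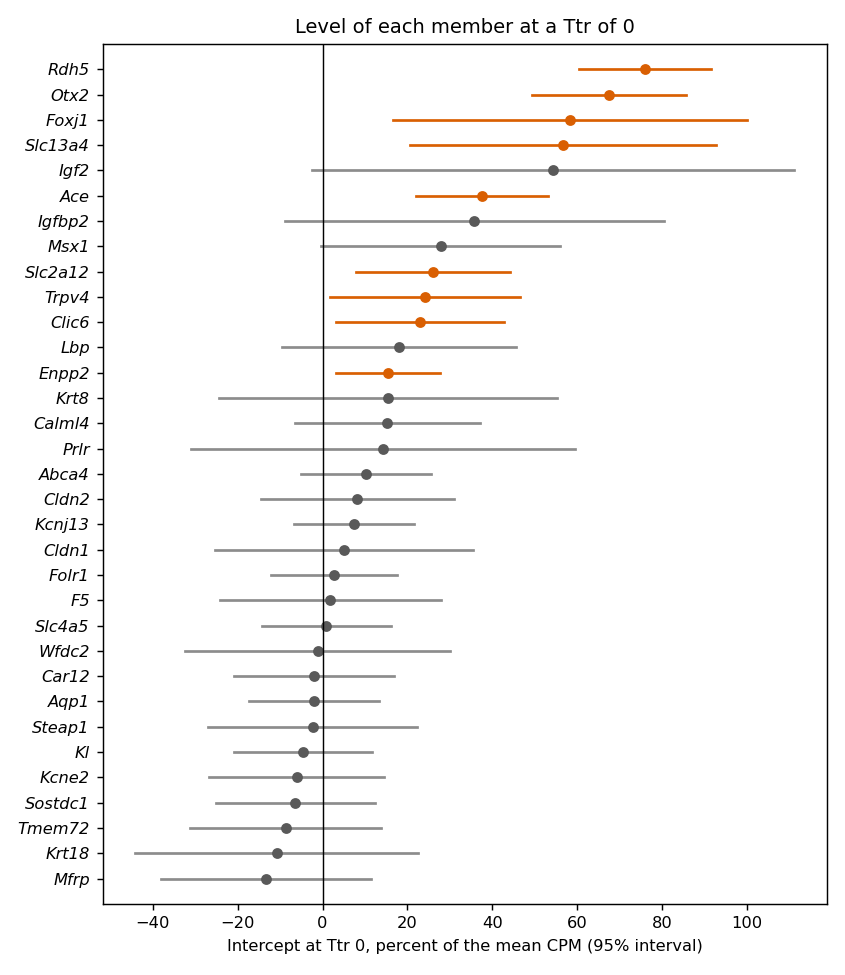
Level of the 33 other members at a Ttr of 0, as a percent of each member's mean CPM (x axis), with the 95% interval of the least-squares intercept over 12 libraries. Colored points mark the 9 members whose interval lies above 0, from Enpp2 at 15.4% to Rdh5 at 76.0%, and grey points the 24 whose interval includes 0.

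Slc13a4 and Igf2 had the highest correlations of the members with genes of the meninges. Slc13a4 had 5.68, 10.04 and 9.43 CPM in WT sedentary mice 116, 117 and 192, and 26.6, 24.7 and 29.4 CPM in WT exercise mice 121, 197 and 201. In SCA1 sedentary mice 16, 194 and 195 it had 25.7, 22.6 and 16.7 CPM, and in SCA1 exercise mice 55, 122 and 198 it had 32.7, 18.6 and 9.60 CPM. Mouse 195 was therefore not low for Slc13a4, whereas SCA1 exercise mouse 198, which had 790.4 CPM of Ttr, was. The mean log2 CPM of 16 genes of meninges and fibroblasts, such as Col1a2 and Col1a1, correlated with Slc13a4 over the 12 libraries at r = 0.924 (rho 0.839, adjusted permutation p = 0.00408 and 0.00284) and with Igf2 at r = 0.888 (rho 0.867, adjusted permutation p = 0.00435 and 0.00133). Without the 2 libraries farthest from the median of the list, r was 0.869 and 0.821. The other 32 members had r of 0.195 to 0.702 with this list, and Ttr had 0.248 (rho 0.385). In all, 4 of 34 had an adjusted p under 0.05 by permutation, the other two being Msx1 (r = 0.702, rho 0.692) and Lbp (r = 0.673, rho 0.650). Over the 10 libraries used for Ttr, Slc13a4 had r of 0.933 with this list and 0.675 with Ttr, and Igf2 had 0.884 and 0.698, differences that were not tested. Both genes are known to be expressed in leptomeningeal cells too. These relations were among 68, for 34 members and 2 lists, and were computed after the data had been seen. Igf2, a growth factor, had only 10 to 73 counts per library, and 58.4% of its exon bases are shared with another annotated gene on the same strand.

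The other list, 15 genes of ependyma and motile cilia of which 13 were tested, correlated with the members at r of 0.626 to 0.850, and 33 of 34 had an adjusted p under 0.05 by permutation. For Foxj1, r was 0.801 (rho 0.727, adjusted permutation p = 0.00979 and 0.0190), and 0.598 without the 2 farthest libraries.

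**Figure D3:**
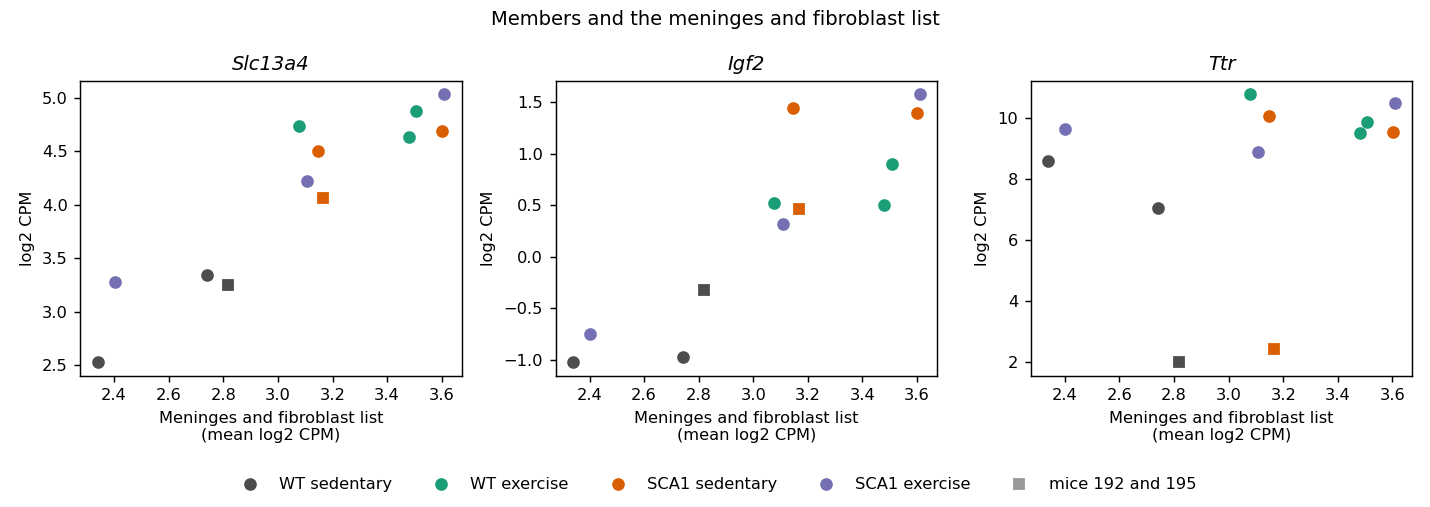
Slc13a4, Igf2 and Ttr (y axes, log2 CPM) against the mean log2 CPM of 16 genes of meninges and fibroblasts (x axis) in 12 libraries, colored by group, with squares for mice 192 and 195. Slc13a4 and Igf2 rise along the x axis, with r of 0.924 and 0.888, while Ttr has r of 0.248.

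The comparison of WT exercise with WT sedentary mice takes running and solo housing together, in mice without the expanded allele. All 34 members had a log2FC above 0, against 50% of the genes tested, and the median was 2.83, against 0.00 over all genes. By edgeR's quasi-likelihood test 31 members had an unadjusted p under 0.05, where 2.78% of genes were higher at that level, but none of the 34 passed an adjusted p of 0.05 and an absolute log2FC of 0.5, and neither did any other gene (0%). The 3 libraries of each group did not overlap for 32 members, all higher in exercised mice, against 10.1% of all genes. An exact permutation test of 3 against 3 cannot give a p below 0.1, which these 32 reached.

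By role, the medians in this comparison were log2FC 3.49 for 7 receptors and membrane enzymes, 2.84 for 4 junction and keratin genes, 2.76 for 8 secreted and carrier proteins, 2.44 for 9 channels and transporters, 1.86 for 3 enzymes, counting the calmodulin relative Calml4, and 0.88 for 3 transcription factors. Mfrp had the largest difference, with 0.978, 0.385 and 0.0377 CPM in WT sedentary mice 116, 117 and 192 and 20.1, 8.76 and 13.4 CPM in WT exercise mice 121, 197 and 201. The groups were far apart, and log2FC was 4.84 (SE 1.10, edgeR adjusted p = 0.407). In GENCODE M39, 37.1% of its exon bases are shared with C1qtnf5 on the same strand. Kl had 8.74, 3.63 and 1.74 CPM in the sedentary and 87.0, 39.1 and 54.1 CPM in the exercised mice of the same order (log2FC 3.65, SE 0.919, edgeR adjusted p = 0.505). Enpp2 had 276, 162 and 129.8 CPM in the sedentary and 1252, 578 and 710.1 CPM in the exercised mice (log2FC 2.16, SE 0.599, edgeR adjusted p = 0.671). For Ttr itself, log2FC was 2.72 (SE 1.38, edgeR unadjusted p = 0.0722), the largest SE of the 34.

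The 2 smallest p by edgeR belonged to genes with little spread among the sedentary mice. Msx1, a homeodomain factor of the dorsal midline, had 1.04, 1.11 and 1.02 CPM in WT sedentary mice 116, 117 and 192 and 7.49, 4.76 and 5.94 CPM in WT exercise mice 121, 197 and 201 (log2FC 2.52, SE 0.422, edgeR adjusted p = 0.332). Lbp, which encodes the lipopolysaccharide-binding protein, had 1.33, 1.11 and 1.47 CPM against 11.5, 8.05 and 7.96 CPM (log2FC 2.81, SE 0.483, edgeR adjusted p = 0.332). In WT sedentary mice these genes were nearly level, although Ttr in the same libraries ran from 3.89 to 382 CPM. Otx2 had a log2FC of 0.88 (SE 0.263, edgeR adjusted p = 0.729). Foxj1 and Rdh5 were the 2 members whose groups overlapped, with log2FC of 0.37 and 0.33 (exact permutation p = 0.5 and 0.2).

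The call in this comparison depended on the test. DESeq2 on all 12 libraries called 13 members, where 0.271% of all genes were called. With edgeR, 25 of the 33 members tested were called when the fit held only these 2 groups (0.777% of genes), 18 when all genes with at least 1 count were kept (0.128%), 12 without mice 16 and 55 (0.312%), and 13 without SCA1 sedentary mouse 195 (0.0909%), which is in neither of the groups compared. All of these calls were higher in exercised mice. With mice 192 and 195 left out, no member was called and the median log2FC was 2.44, so the difference from WT sedentary mice 116 and 117 alone was of similar size. Summed levels of other marker lists are given beside this result. The ependyma list had 48.1 to 53.9 CPM in WT sedentary and 68.5 to 84.9 CPM in WT exercise mice, without overlap. The meninges list had 104 to 173 CPM and 169 to 230.3 CPM, which overlap. Oligodendrocyte genes were lower in exercised mice without overlap, at 3460 to 4490 CPM against 2875 to 3022 CPM, with all 10 below 0 in log2FC and none at an unadjusted p under 0.05 by edgeR. Erythrocyte genes had 23.4 to 74.3 CPM and 15.5 to 35.2 CPM, with all 5 below 0. None of the genes of these lists was at 0 in all libraries, and their part in the members' difference was not tested.

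**Figure D4:**
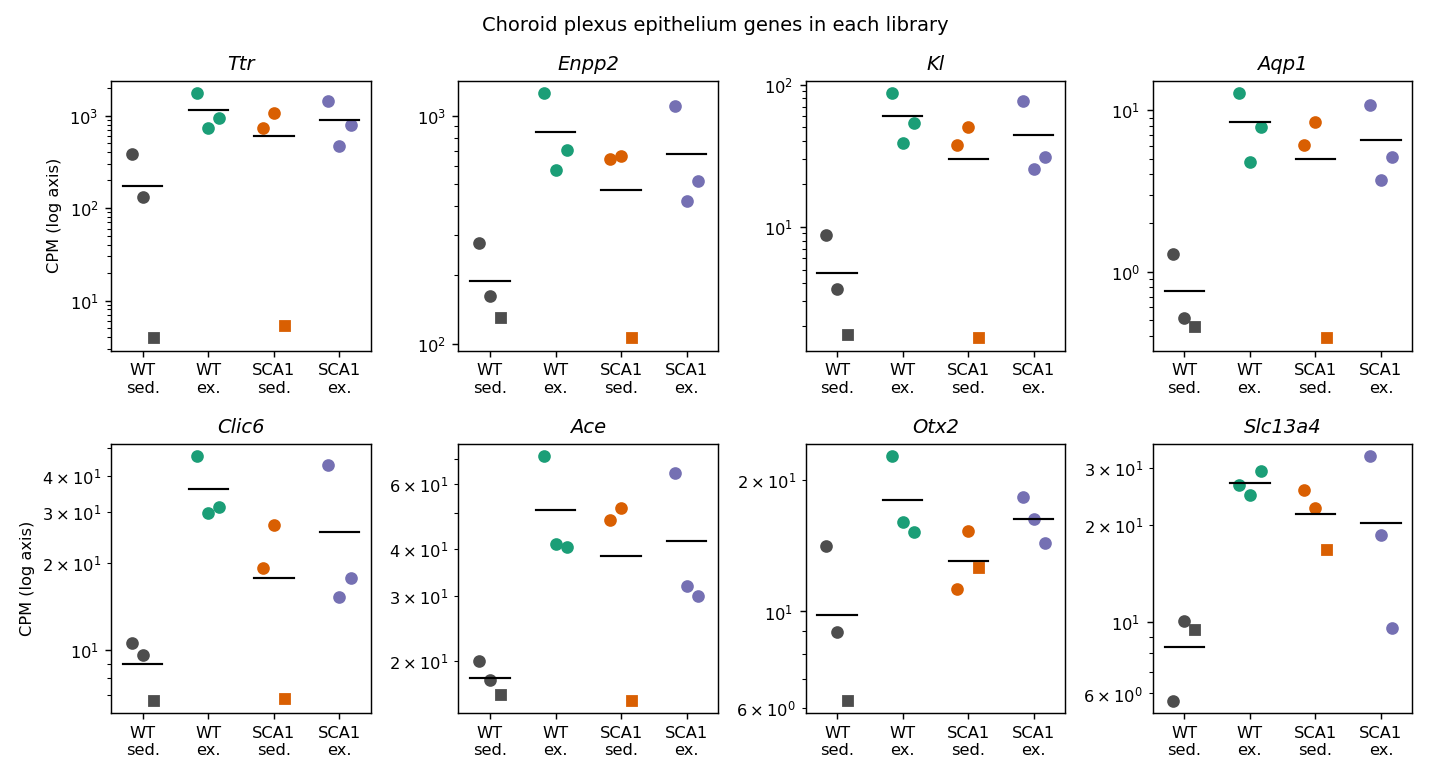
Expression of 8 members (y axes, CPM, log scale) in each library by group, with squares for mice 192 and 195 and a bar at the mean of 3 mice. In WT sedentary mice Kl stays at or under 8.74 CPM and in WT exercise mice at or above 39.1 CPM, and SCA1 sedentary mouse 195 falls into the WT sedentary range or below it for all 8 genes except Slc13a4.

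SCA1 sedentary mice were compared with the same WT sedentary mice, so the values of both comparisons share these controls. Here 33 members had a log2FC above 0, all but Rdh5 (−0.16), against 52.5% of genes, with a median of 1.97, against 0.02 over all genes. At an unadjusted p under 0.05 by edgeR, 22 members were higher, where 5.55% of genes were. None was called, against 0.00983% of genes called higher. The spread within SCA1 sedentary mice was wide, since mouse 195 was the lowest of all 12 libraries for 10 members. Ttr had a log2FC of 1.80 (SE 1.34, edgeR adjusted p = 0.683) and Enpp2 of 1.32 (SE 0.584, edgeR adjusted p = 0.478).

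Libraries did not overlap for 6 members, all higher in SCA1 sedentary mice, against 5.6% of all genes. They were Lbp, Slc13a4, Msx1, Trpv4, Igfbp2 and Igf2. Msx1 had 5.26, 5.61 and 2.17 CPM in SCA1 sedentary mice 16, 194 and 195, against 1.02 to 1.11 CPM in WT sedentary mice (log2FC 2.04, SE 0.420, edgeR adjusted p = 0.143). For Igf2 the values were 2.54, 2.63 and 1.30 CPM against 0.410 to 0.717 CPM (log2FC 2.06, SE 0.539, edgeR adjusted p = 0.242), and for Slc13a4 log2FC was 1.37 (SE 0.357, edgeR adjusted p = 0.242). In these mice the meninges list was at 185 to 258 CPM, above the 104 to 173 CPM of WT sedentary mice, and the ependyma list at 60.6 to 73.9 CPM, above 48.1 to 53.9 CPM. Purkinje cell markers were lower without overlap, at 5539 to 7331 CPM against 8428 to 9626 CPM. Of the 10 hindbrain genes tested, 8 were higher at an unadjusted p under 0.05 by edgeR, with 38.9 to 278 CPM against 34.4 to 40.9 CPM. The part of these lists in the result was not tested. DESeq2 called 6 members in this comparison (1.05% of genes), edgeR with all genes of at least 1 count 8 (0.216%), and edgeR without mice 16 and 55 called 4 (1% of genes). Leaving out SCA1 sedentary mouse 195 gave 1, where 8 of 20913 genes were called. Leaving out SCA1 exercise mouse 55 also gave 1, where 42 of 20777 genes were called.

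Exercise in SCA1 mice gave no member a p under 0.05. Between SCA1 exercise and SCA1 sedentary mice, 31 members had a log2FC above 0 (48.1% of genes) with a median of 0.47, 0 were called (0% of genes), and 0 had an unadjusted p under 0.05 by edgeR, against 1.19% of genes higher. Libraries of the groups overlapped for all 34, with no share over all genes to set beside this count. Kl had 37.8, 50.2 and 1.64 CPM in SCA1 sedentary mice 16, 194 and 195, and 76.5, 25.3 and 30.8 CPM in SCA1 exercise mice 55, 122 and 198. The sedentary values enclosed 2 of the 3 exercise values. Ttr had a log2FC of 0.59 (SE 1.30, edgeR adjusted p = 0.999), which was −0.01 without mouse 195, and the median of the 34 was −0.02 without it. Without SCA1 exercise mouse 55 that median was −0.09.

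Between SCA1 exercise and WT exercise mice, 32 members had a log2FC below 0 (49.3% of genes) with a median of −0.34. None was called (0% of genes) and none had an unadjusted p under 0.05 by edgeR, against 1.48% of genes lower. The libraries overlapped for all 34, again without a share over all genes beside it. Ttr had a log2FC of −0.33 (SE 1.30, edgeR adjusted p = 0.982), and it was 0.10 without WT exercise mouse 121.

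The interaction, the exercise difference in SCA1 mice minus that in WT mice, was below 0 for 33 members (51.1% of genes) with a median of −2.14. At an unadjusted p under 0.05 by edgeR it was lower for 21 members, where 2.21% of genes were, and none was called (0% of genes). It was −4.28 for Mfrp (SE 1.39), −2.14 for Ttr (SE 1.86) and 0.01 for Rdh5 (SE 0.344), and the adjusted p of edgeR was 1.00 for each of them. DESeq2 called 0 members in the interaction and in both comparisons of SCA1 exercise mice. A smaller exercise difference in SCA1 mice was thus not shown at the adjusted level.

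**Figure D5:**
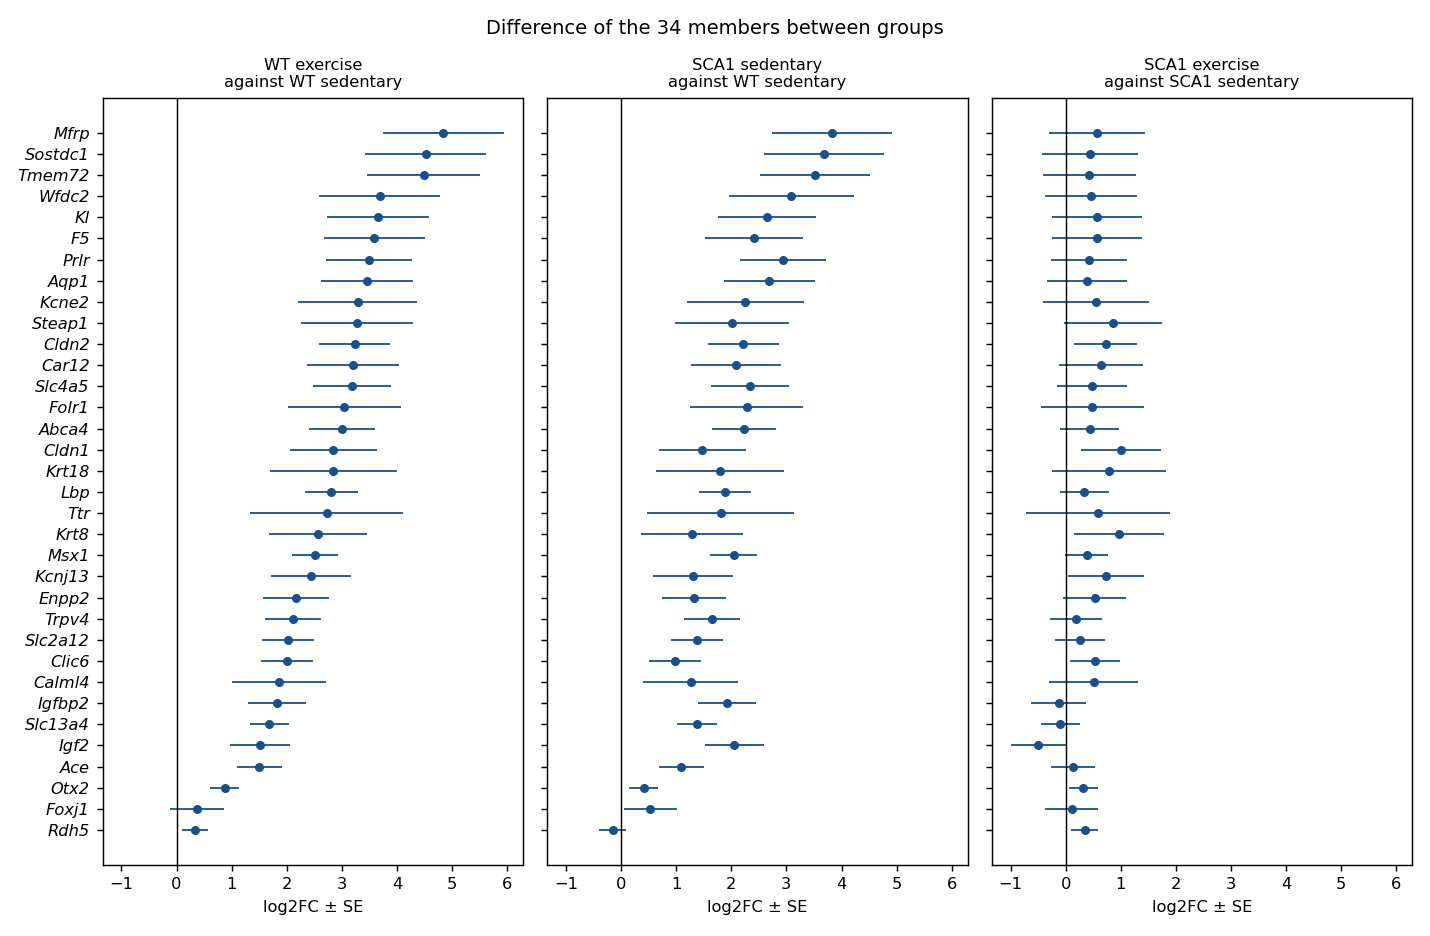
Differences of the 34 members (x axes, log2FC, bars ± SE derived from the F statistic of edgeR) in 3 comparisons, ordered by the first. Values are above 0 for 34, 33 and 31 members from left to right, and reach 4.84 for Mfrp in exercised WT mice.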

How the data were processed

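Cerebellar RNA of 12 mice was rRNA-depleted and sequenced as paired, strand-specific reads. Adapter-rich files were trimmed (fastp 0.24.0) and reads were mapped with STAR 2.7.10a on GRCm39. The authors deposited the raw counts of STAR per gene, unstranded and for each strand. The gene annotation they counted on was not given in the sources used here. All but 2 RNA samples had a RIN above the study's limit, and the labels do not say which.

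The reverse-strand counts were used here. IDs were matched to GENCODE M39 (56323 of 56941 genes). Genes kept by filterByExpr were scaled by TMM and tested in edgeR 4.0.16 (R 4.3.3) with the quasi-likelihood test in 1 model of 4 groups and 12 libraries. A gene was called at a Benjamini-Hochberg adjusted p under 0.05, over all genes tested, and an absolute log2FC over 0.5. The SE of a log2FC was derived as its absolute value over the square root of the F statistic of this test. Log2 CPM had a prior count of 2. Correlations, exact permutation tests and least-squares lines used scipy 1.17.1. The tests were checked on simulated data. Alternatives were DESeq2 1.42.0, other filters, scalings and strands, chromosome Y expression as a covariate, other genes in place of Ttr, and libraries left out. Members and lists were chosen with earlier results of these data known. Genes named were all members, up to 3 of each other list with the highest mean CPM, and the 5 other genes with the highest r with Ttr and a mean log2 CPM of at least 1. Bloc1s1, C1qtnf5 and Tbpl1 were named for their overlap with members. Atxn1 counts cannot separate the alleles and are not given.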

Additional observations from a re-analysis of the deposited data

How the results depend on the processing

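No paired analysis was possible because the mouse numbers are unique to each library. The number of members called stayed at 0 in every comparison with RLE size factors, unstranded counts, a minimum of 10 counts per library, the chromosome Y covariate, no limit on the log2FC, and mice 192 and 195 left out. For SCA1 sedentary against WT sedentary mice it was 6 with DESeq2, 8 with genes of at least 1 count, 4 without mice 16 and 55, and 0 to 1 with single mice left out. For WT exercise against WT sedentary mice it was 13, 18 and 12 under the same settings, 25 with the 2 groups alone, and 0 to 13 with single mice left out. The cause was not tested. The members with a level apart from Ttr were 9, and were 5 with Clic6 in place of Ttr, 3 without mice 192 and 195, and 6 to 12 with single mice left out. Those following Ttr were 31, and 24 to 31 under all alternatives. The signs of 31 log2FC values of named genes and comparisons held in all alternatives but 4. For SCA1 exercise against SCA1 sedentary mice, the log2FC of Ttr was −0.00850 without mice 192 and 195, and −0.00801 (without SCA1 sedentary mouse 195) to 1.30 (without mouse 194) with single mice left out. For SCA1 exercise against WT exercise mice it was −0.85 to 0.10 for Ttr and −0.845 to 0.0576 for Enpp2, the lowest without SCA1 exercise mouse 55 and the highest without WT exercise mouse 121. With 3 mice a group, and Ttr this uneven within both sedentary groups, the SE of the log2FC of Ttr was 1.30 to 1.86 over the 5 comparisons, and members with under 10 counts in a library carry wide counting error.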

Other observations

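Of 30 other genes of the choroid plexus epithelium, written as a separate list, 29 were tested. Their summed CPM was 2732 to 2794 in WT sedentary and 2999 to 3319 in WT exercise mice. This sum was set mostly by a few abundant genes and does not show how the less abundant ones moved. The most abundant were Atp1b1 (901.7 CPM on average), a subunit of the sodium pump that neurons also use, the channel gene Trpm3 (583 CPM) and the calcium pump gene Atp2b3 (425 CPM). Ecrg4 and Rbm47, named below for their r with Ttr, are of low abundance. Ecrg4 had 5.36, 2.69 and 1.06 CPM in WT sedentary mice 116, 117 and 192, and 18.5, 10.3 and 12.1 CPM in WT exercise mice 121, 197 and 201. Rbm47 had 1.14, 0.427 and 0.641 CPM against 10.5, 4.63 and 6.18 CPM. In WT exercise against WT sedentary mice 27 of the 29 were higher and 2 lower, with a median log2FC of 0.51. At an unadjusted p under 0.05 by edgeR 15 were higher, where 2.78% of all genes were, and 0 were called (0% of genes). In SCA1 sedentary against WT sedentary mice 25 were higher, 10 of them at that level, where 5.55% of all genes were. None was called, against 0.00983% of genes called higher.

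Outside the members, and among genes with a mean log2 CPM of at least 1, the 5 with the highest r with Ttr over the 10 libraries were Ecrg4 (r = 0.990), which encodes the secreted peptide precursor augurin, Drc7 (0.978), a component of the dynein regulatory complex of cilia, Rbm47 (0.959), an RNA-binding protein, Ezr (0.959), which encodes the membrane linker ezrin, and Wdr86 (0.922). Ecrg4 and Rbm47 are in the list of other choroid plexus genes. Ecrg4 ranged from 1.06 to 18.5 CPM, Drc7 from 0.453 to 10.5 CPM, Rbm47 from 0.427 to 10.5 CPM and Wdr86 from 0.377 to 9.68 CPM, whereas Ezr, at 13.1 to 31.2 CPM, kept a high level in every library.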
